A study of Monodelphis domestica and Mus musculus with 2 samples.

Results

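L5PT is a deposited subclass label for cells of the opossum primary visual cortex (V1), named for the pyramidal tract neurons of layer 5. The cells described here are those that carried the subclass label L5PT and the class label glutamatergic and passed the authors' filter of at least 50 genes and 100 UMIs. There were 115 of them among 3752 glutamatergic cells and 4806 cells of any class in the 3 V1 regions, or 3.07% of the glutamatergic cells (95% exact Clopper-Pearson interval 2.54 to 3.67%). The 3 regions held 50, 43 and 22 of the cells, which made up 3.40%, 3.35% and 2.20% of their glutamatergic cells. Every L5PT label in V1 fell in the glutamatergic class. That class also held 1041 cells whose subclass label was of another class or missing, since class and subclass were assigned separately, and 2701 of its cells carried 1 of the 6 subclass labels compared below.

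The tissue came from 1 adult male gray short-tailed opossum aged 6 months, of which a single 10 µm section was measured by Stereo-seq, a method that captures polyadenylated RNA on a chip of barcoded spots and counts unique molecular identifiers (UMIs) per segmented cell. A section of 1 adult male wild-type C57BL/6J mouse at postnatal day 40 was measured in the same way and is used below for values side by side. The labels name no treatment or engineered allele for either animal. With 1 animal per species there is no biological replicate, so no p-value is given. The block that was cut held 2 coronal slices of the brain, and the paper counts the 3 opossum regions as taken from 2 coronal sections. All come from 1 animal and 1 chip. All intervals cover counting error only.

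Pyramidal tract neurons, also called extratelencephalic or subcerebral projection neurons, send axons out of the cortex to the superior colliculus, pons, brainstem and spinal cord. In rodents they have large cell bodies in layer 5 and thick apical dendrites, and the zinc finger transcription factors FEZF2 and BCL11B (CTIP2) are needed for their identity and for the growth of their axons. Intratelencephalic (IT) neurons, labelled IT_A, IT_B, IT_C and IT_D in the opossum, project within the telencephalon. IT_D had 10 cells in V1 and was not compared, and IT_C was the deepest of the other IT groups here. The remaining groups of deep layers are L5NP, the near-projecting neurons, and L6CT, the corticothalamic neurons of layer 6.

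The opossum section held 84570416 UMIs over 80369 cells, and the median V1 cell had 1326 UMIs. No cell barcode was repeated within the section or shared with the mouse section. UMIs of other cell types were found in most cells, and MBP, a myelin gene of oligodendrocytes, was detected in 104 of the 115 L5PT cells at 27.9 UMIs per 10000 UMIs, against 83.5 in the 230 cells labelled as oligodendrocytes (OD) in both subclass and non-neuronal class. The subclass labels were transferred by the authors from single-nucleus data in 3 rounds of falling stringency, and 29, 62 and 24 of the L5PT cells got theirs in rounds 1, 2 and 3. Because the labels rest on the same counts, differences in expression between labels are a description and were not tested.

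The L5PT cells lay in the lower part of the cortex, just below IT_C and above L6CT. Their median depth below the top of layer 2/3 was 551.7 µm (interquartile range 492.9 to 607.7 µm), with medians of 543.9, 596.4 and 519.3 µm in the 3 regions. From the surface down, the medians of the other groups were 188.6 µm for the 1594 cells of IT_A, 375.1 µm for the 126 of IT_B, 508.4 µm for the 262 of IT_C, 630.0 µm for the 39 of L5NP and 690.5 µm for the 565 of L6CT. Taking every pair of 1 L5PT cell and 1 cell of another group, the L5PT cell was the deeper one in 91.0% of pairs with IT_A, 88.5% with IT_B, 25.9% with L5NP and 20.7% with L6CT. Against IT_C the share was 61.5%, and it was 59.3%, 63.0% and 58.9% in the 3 regions, so the 2 groups overlapped over most of their range. The small offset from IT_C depended on the labels: among cells labelled in round 1 (29 L5PT and 45 IT_C cells), the medians differed by 4.62 µm and the L5PT cell was deeper in 42.6% of pairs.

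**Figure D1:**
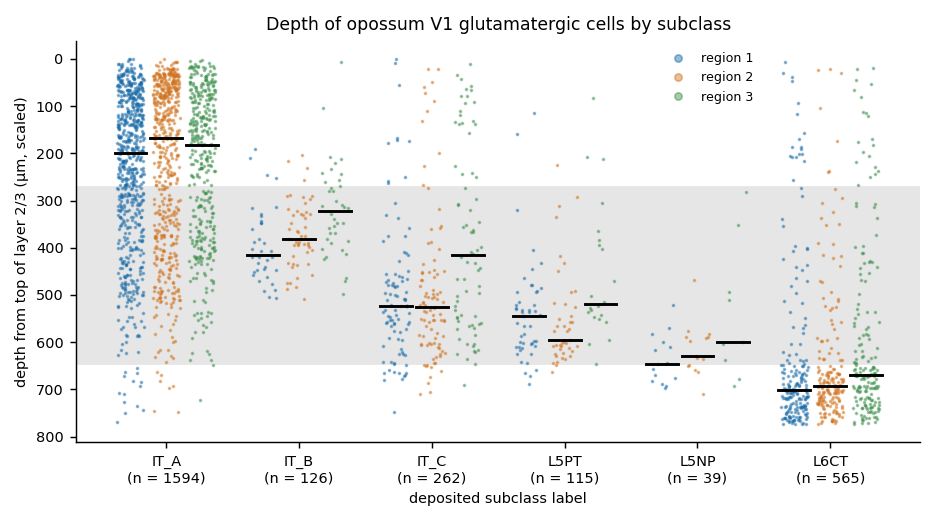
Depth below the top of layer 2/3 (vertical axis, µm, scaled to the tallest region) of each glutamatergic cell by deposited subclass label, with 1 point per cell, colored by V1 region, and a black line at the median of each region. The L5PT cells gathered between the IT_C and L6CT medians, and the grey band marks the depths from 271.1 to 646.6 µm used to compare L5PT with IT_C.

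By depth, the L5PT share of glutamatergic cells was 1.34% (7 of 522) between 300 and 400 µm and 3.35% (17 of 508) between 400 and 500 µm. It reached 11.1% (45 of 405, interval 8.22 to 14.6%) between 500 and 600 µm and 8.50% (39 of 459, 6.11 to 11.4%) between 600 and 700 µm. Below 700 µm, 0 of 351 glutamatergic cells were L5PT. The band from 500 to 700 µm thus held 84 of the 115 cells, and only 7 lay above 300 µm, none of them labelled in round 1.

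Over all regions the L5PT cells carried more UMIs than the IT groups. The median was 1894 UMIs (interquartile range 1112.5 to 2893) and 1111 genes per L5PT cell, and by region the median was 2026, 2103 and 1050 UMIs. IT_A cells had a median of 1365 UMIs, IT_B cells 1603, IT_C cells 1455.5, L6CT cells 1751 and L5NP cells 1945. The order did not hold in region 3, where IT_B cells had 1076. When each cell was thinned to 300 UMIs, which left out 3 L5PT and 15 IT_C cells, the medians were 259 genes in L5PT, 257 in IT_C, 253 in IT_B and 258 in L6CT. IT_A cells had 254. At equal UMI number the larger number of genes per L5PT cell thus shrank to a few genes. It kept its direction against IT_C, with 259.5, 260 and 255 genes in L5PT of the 3 regions and 257, 257 and 250 in IT_C.

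Cells with the L5PT label had more L5PT cells around them than IT_C cells of the same band of depths had. Within the band of depths shared with IT_C, the median distance from an L5PT cell to the nearest other L5PT cell was 26.3 µm (interquartile range 15.8 to 50.9 µm), while an IT_C cell of the same band had its nearest L5PT cell at 55.0 µm. IT_C cells were likewise near their own kind, at 26.7 µm, and made up 12.1% of the cells within 50 µm of an IT_C cell and 10.1% of those around L5PT. Of all cells within 50 µm of an L5PT cell, 10.6% were L5PT, with 10.9%, 11.8% and 8.1% in the 3 regions. Around IT_C cells the share was 5.0%, with 5.5%, 5.5% and 4.0% in the regions, so the ranges did not overlap. IT_A cells made up 16.0% of the cells around L5PT and 21.0% of those around IT_C, and cells with the oligodendrocyte subclass label made up 14.6% and 14.2% and those with the astrocyte label 10.3% and 9.6%. At least 1 L5PT cell lay within 50 µm of 73.8% of the 103 L5PT cells and of 44.7% of the 197 IT_C cells. The levels of leading genes in cells beside L5PT cells are given further on, and their part in this closeness was not tested. Depth was not matched within the band, where the medians were 551.7 µm for L5PT and 522.3 µm for IT_C. The part of depth in this closeness was not tested either.

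A marker of these neurons in rodents did not set the label apart from the other deep groups here. FEZF2, the transcription factor named for this group, had 15 UMIs over all 115 L5PT cells. Its level was 0.636 UMIs per 10000 in L5PT (95% exact Poisson interval 0.356 to 1.05), 0.998 in IT_C, 1.17 in L5NP, 1.43 in L6CT (1.20 to 1.68) and 0.896 in oligodendrocytes, against 0.189 in IT_A and 0.0472 in IT_B. A FEZF2 UMI was found in 9.57% of L5PT cells (4.87 to 16.5%), 10.7% of IT_C cells and 10.0% of oligodendrocytes, whose median depths were 1894, 1455.5 and 1180 UMIs. The share in L5PT was thus not above that in a cell type that should lack the gene and had fewer UMIs, and its interval includes that value. All 15 UMIs lay in the 58 deeper L5PT cells, at 1.08 UMIs per 10000 (0.603 to 1.78). The 57 shallower cells had 0, with an upper limit of 0.382. The exact 95% interval for the ratio of deeper to shallower cells began at 2.49. Within the shared band the ratio of L5PT to IT_C was 0.600 (0.291 to 1.17) from 13 and 34 UMIs. The cells are therefore called by their deposited label below, and they are described by the genes that were highest in them.

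To compare expression at the same depth, UMIs were summed over the 103 L5PT cells (215793 UMIs) and the 197 IT_C cells (338748 UMIs) between 271.1 and 646.6 µm, the 5th and 95th percentiles of L5PT depth. Their median depths were 551.7 and 522.3 µm. A gene was called higher or lower if its level differed at least 1.5-fold with 1 direction in all 3 regions. Of 2726 features with at least 50 UMIs over both groups, 201 (7.37%) were higher and 232 (8.51%) were lower in L5PT. Of these, 161 and 198 carry a gene symbol. The median log2 ratio over all tested features was -0.03, so the shifts below stand against a background centred near 0.

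The genes highest in L5PT over IT_C were led by CDH13, SORCS1 and BCL11B. CDH13, a cadherin tethered to the membrane by a lipid anchor, was at 6.25, 5.15 and 1.21 UMIs per 10000 in L5PT of the 3 regions and at 0.695, 0.0695 and 0.766 in IT_C, a ratio of 11.7 (95% exact interval 6.81 to 21.6). SORCS1, a sorting receptor of neurons, was at 2.92, 4.83 and 3.64 in L5PT and 0.154, 0.417 and 0.612 in IT_C, a ratio of 10.9 (5.90 to 21.9). For BCL11B the levels were 4.48, 2.00 and 4.05 against 0.309, 0.347 and 0.612, a ratio of 8.69 (4.78 to 17.1). In SORCS1 and BCL11B every L5PT region was above every IT_C region, and CDH13 in region 3 of L5PT was still above every IT_C region but by the smallest margin.

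KIF26B, a kinesin family member, was at 3.86, 1.26 and 6.88 UMIs per 10000 in L5PT and 0.232, 0.556 and 0.153 in IT_C, a ratio of 8.63 (4.63 to 17.6). Its ratio depended on the region and was 21.8 without region 2. NTNG1, which encodes netrin-G1, a membrane-anchored relative of the netrin guidance cues, was at 5.84, 3.57 and 1.21 in L5PT and 0.695, 0.486 and 0.919 in IT_C, a ratio of 6.64 (4.13 to 11.1). KLHL32, of the kelch-like family, had a ratio of 6.21 (3.90 to 10.3), ATP8A2, a phospholipid flippase, 5.82 (3.36 to 10.6), and INPP1, an enzyme of inositol phosphate breakdown, 5.31 (2.81 to 10.8). GRIK2, a kainate receptor subunit, was at 17.3, 12.4 and 8.50 in L5PT and 1.93, 3.82 and 2.60 in IT_C, so its lowest L5PT region was above its highest IT_C region, with a ratio of 4.94 (3.92 to 6.27). The other genes of the 12 highest were the latrophilin ADGRL2 at 3.68, the GTPase-activating protein ARHGAP22 at 3.63 and RPRM, a p53 target linked to cell cycle arrest, at 3.51 (2.25 to 5.59).

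Genes lower in L5PT than in IT_C were led by RORB and KCNT2. RORB, a nuclear receptor typical of layer 4 and other IT neurons, was at 0, 0.315 and 0 UMIs per 10000 in L5PT and 1.93, 2.02 and 3.52 in IT_C, a ratio of 0.0612 (0.0123 to 0.186) from 3 and 77 UMIs. KCNT2, a sodium-activated potassium channel, was at 0.313, 0.946 and 0 in L5PT and 4.40, 9.52 and 3.06 in IT_C, a ratio of 0.0880 (0.0448 to 0.157). SEMA5A, a semaphorin, had a ratio of 0.106 (0.0335 to 0.259) and RASA3, a GTPase-activating protein, 0.205 (0.122 to 0.328). ERC2, a scaffold of the presynaptic active zone, was at 0.938, 2.52 and 2.43 in L5PT and 3.78, 6.53 and 8.27 in IT_C, a ratio of 0.311 (0.215 to 0.440). In all 5 of these genes the highest L5PT region was below the lowest IT_C region.

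Leaving out a region kept the direction of these genes but moved some ratios by over 1.5 times. Without region 1 the ratio was 5.62 for BCL11B, 6.55 for ADGRL2 and 0.101 for RORB. Without region 2 it was 7.27 for CDH13, 7.38 for RPRM and 0.0425 for SEMA5A, and RORB had no UMI left in L5PT.

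Fewer genes set L5PT apart from all 5 other glutamatergic groups. Of 9390 features with at least 50 UMIs over the groups, 160 (1.7%) were at least 1.5-fold above the highest other group and above the pooled others in each region. TRPC4, a cation channel, was 8.50-fold above the highest other group, and within the shared band it was at 2.29, 1.68 and 0.405 UMIs per 10000 in L5PT and 0.232, 0.208 and 0 in IT_C. NTNG1 was 6.91-fold above IT_C and SORCS1 6.45-fold above L5NP, the highest other group for each. GRIK2 was 3.02-fold above L6CT. ADCY1, a calcium-stimulated adenylyl cyclase, had a ratio of 3.45 (2.40 to 5.03) over IT_C, with 4.07, 5.46 and 3.24 in L5PT against 1.31, 1.67 and 0.612. Other genes of this kind had few UMIs, such as the transcription factor SP5 (23 UMIs in L5PT), which was 2.67-fold above IT_C, and the zinc finger gene ZNF219 (10 UMIs), 3.52-fold above L6CT. ARHGAP22 did not belong to this set, since it was higher in L5NP than in L5PT.

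**Figure D2:**
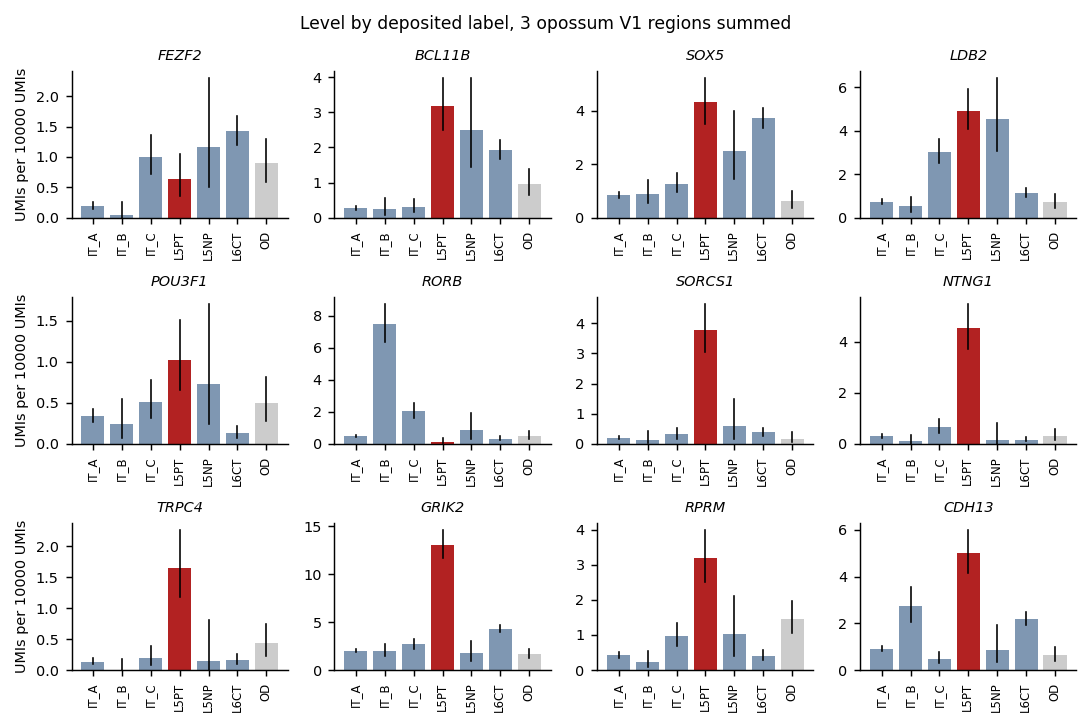
Level of 12 genes (UMIs per 10000 UMIs, axis from 0) in each glutamatergic label and in oligodendrocytes (OD, grey), summed over 3 V1 regions, with 95% exact Poisson intervals for counting error. Genes highest in L5PT (red) include BCL11B, SORCS1, NTNG1, TRPC4, GRIK2, RPRM and CDH13, while FEZF2 is highest in L6CT at 1.43 and RORB in IT_B at 7.50.

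Of the 12 transcription factors listed for pyramidal tract neurons, 10 have a symbol in the opossum table and 7 reached 50 UMIs. BCL11B and SOX5 were called higher (28.6% of those tested) and none lower (median log2 ratio 0.77). Over all features 7.37% were higher and 8.51% lower. SOX5, which in rodents orders the production of deep-layer neurons, was at 3.75, 5.36 and 4.05 UMIs per 10000 in L5PT and 2.32, 0.973 and 0.459 in IT_C, a ratio of 3.24 (2.26 to 4.69) that was 6.26 without region 1. Over whole labels BCL11B was at 2.49 in L5NP and 1.92 in L6CT and a UMI of it was found in 27.8% of L5PT cells (19.9 to 37.0%), 3.82% of IT_C cells and 10.4% of oligodendrocytes. At 300 UMIs per cell, in 1 random draw, those shares were 8.93%, 1.21% and 3.56%. LDB2, a LIM domain binding protein and a marker of these neurons in rodents, was at 5.73, 5.15 and 1.62 in L5PT against 2.55, 3.41 and 2.14 in IT_C, so its ratio of 1.77 (1.33 to 2.35) did not hold in region 3. POU3F1, another marker in rodents, had a ratio of 1.85 (0.919 to 3.75) from 20 and 17 UMIs, and CRYM, a thyroid hormone binding protein, 0.638 (0.307 to 1.25) from 13 and 32 UMIs, which turned to 1.32 without region 2. TOX (1.70), ZFPM2 (1.59, and 0.671 without region 1), ETV1 (0.734) and TBR1 (0.557) were not called.

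Further marker genes from rodents were too sparse to compare. Of 17 such genes 15 have a symbol, none reached 50 UMIs, and together they gave 67 UMIs in L5PT and 73 in IT_C. Of these, 6 were at 0 in L5PT, among them PCP4, a calmodulin regulator of layer 5 neurons. With 215793 UMIs behind L5PT in the band, this limits what could be detected and does not show that the genes are absent.

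Of 16 listed genes of the axon cytoskeleton 10 were tested, with 2 called higher and none lower (median log2 ratio 0.13). Over all features 7.37% were higher and 8.51% lower. NEFL, the light neurofilament subunit, was at 8.03, 9.14 and 10.1 UMIs per 10000 in L5PT and 5.94, 5.70 and 5.67 in IT_C, a ratio of 1.51 (1.23 to 1.86) with no overlap between the regions. STMN3, a regulator of microtubules, had a ratio of 1.62 (1.11 to 2.37), and MAP1B, a microtubule-associated protein, was higher in each region with a ratio of 1.46 (1.28 to 1.67), short of the 1.5-fold set for a call. Without region 2 or 3, NEFL was at 1.45 or 1.48, and without region 1 STMN3 was at 1.49, so neither call held then. The 22 tested genes of nuclear oxidative phosphorylation, of 31 listed, gave no call and a median of 0.07.

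Ion channels were divided. Of 22 listed, 12 were tested, with 3 higher, 3 lower and a median log2 ratio of 0.07. Each direction held 25% of those tested, beside 7.37% higher and 8.51% lower over all features. The potassium channel subunit KCNQ3 was lower in L5PT, at 0.595 (0.347 to 0.988), or 0.668 without region 3. Among those called higher, KCNAB1, an auxiliary potassium channel subunit, was at 1.70 (0.947 to 3.05) and KCNC1, a fast delayed rectifier, at 1.62 (0.979 to 2.67), and both of these intervals include 1. The calcium channel subunits CACNA1A and CACNA2D1 were also lower in L5PT, at 0.512 (0.376 to 0.689) and 0.465 (0.303 to 0.696).

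Among 15 tested glutamate receptors and modulators, of 27 listed, 2 were higher and 3 lower (median log2 ratio 0.29). These were 13.3% and 20%, beside 7.37% and 8.51% over all features. The AMPA receptor subunit GRIA4 was at 3.23, 3.26 and 6.88 UMIs per 10000 in L5PT and 2.24, 1.04 and 1.38 in IT_C, a ratio of 2.34 (1.63 to 3.38) with no overlap between regions, and GRIK2 was the other. The metabotropic receptors GRM3 and GRM7 were at 0.436 (0.312 to 0.599) and 0.580 (0.466 to 0.718), and the kainate receptor subunit GRIK3 at 0.605 (0.402 to 0.893). Without region 1 GRM7 was at 0.692 and without region 2 GRIK3 was at 0.779, which ended their calls. Lower values of GRM7 in L5PT did not separate by region, since region 2 of L5PT was at 7.15 and region 3 of IT_C at 2.60.

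For axon guidance, 11 of 26 listed genes were tested, with 2 called higher and 1 lower. These were 18.2% and 9.09%, beside 7.37% and 8.51% over all features. The netrin receptor UNC5C was higher in L5PT at 2.64 (1.52 to 4.70), with 1.36, 2.00 and 2.02 UMIs per 10000 against 0.849, 0.347 and 0.919 in IT_C, or 1.71 without region 2, and its relative UNC5D was lower at 0.613 (0.479 to 0.779), or 0.719 without region 1. The ephrin receptor EPHA7 was at 1.51 (1.10 to 2.08), or 1.19 without region 1, and the median log2 ratio of the list was 0.05. Synaptic vesicle and release genes gave 1 lower call among 11 tested of 18 listed, near the share over all features. It was the vesicle protein SYN2 at 0.428 (0.292 to 0.614), and the median of the list was -0.14. The release genes SYT1 at 0.740 and SNAP25 at 0.962 were not called. Of 11 perineuronal net genes, which form the matrix around some neurons, only CSPG5 was tested and it was not called (0.703). HAPLN4, a link protein of these nets, was below the 50-UMI minimum within the band. Over whole labels it was at 1.31 UMIs per 10000 in L5PT, 2.25-fold above L5NP, a group of only 39 cells. Of its 31 UMIs in L5PT, 26 lay in the 58 deeper cells and 1 in region 3.

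Genes that mark the other neuron groups were called in both directions. Of 15 IT genes 8 were tested, with 2 lower, RORB among them, and CDH13 higher (median log2 ratio -0.23), beside 7.37% higher and 8.51% lower over all features. CUX2, a factor of upper layers, was at 1.05 (0.625 to 1.73). Of 10 L6CT genes 2 were tested and GRIK3 was called lower, while FOXP2 gave 15 and 9 UMIs and TLE4 9 and 33 UMIs in L5PT and IT_C. None of the 8 L5NP and L6b genes reached 50 UMIs.

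Markers of other cell types were present in L5PT and in IT_C. The summed oligodendrocyte markers were at 36.8, 39.4 and 29.96 UMIs per 10000 in the L5PT regions and 35.6, 35.1 and 33.7 in IT_C, with none of 2 tested genes called of 13 listed. Astrocyte markers (12 listed, 8 tested) summed to 32.8, 39.0 and 47.0 in L5PT and 38.0, 43.4 and 50.4 in IT_C. Among them the glutamate transporter SLC1A3 was called higher, at 1.82 (1.15 to 2.91), and SLC1A2 (0.421) and the water channel AQP4 (0.523) lower (median log2 ratio -0.24). Over all features 7.37% were higher and 8.51% lower. GABAergic markers (12 listed, 6 tested, no call, median 0.37) summed to 13.9, 17.9 and 18.2 in L5PT and 13.9, 12.2 and 15.3 in IT_C, and the interneuron peptides NPY and VIP were at 0 in L5PT. Microglial and vascular markers (11 listed, none tested) summed to 1.11 in L5PT and 1.00 in IT_C, and C1QA, C1QC, CSF1R and P2RY12 were at 0 in L5PT. The part of these genes in the differences above was not tested.

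Some of the leading genes were also higher in cells beside L5PT cells. Among cells of the band that were not L5PT, the 12 highest genes summed to 12.3 UMIs per 10000 in the 405 cells within 30 µm of an L5PT cell and to 9.96 in the 1871 cells farther away, a ratio of 1.23 (1.14 to 1.33). In oligodendrocytes and astrocytes of non-neuronal class (49 near and 265 far) the ratio was 1.54 (1.20 to 1.95), with BCL11B at 4.37 (1.89 to 10.0). In IT_C cells (50 near and 147 far) the ratio of the sum was 1.00 (0.77 to 1.30). BCL11B was there at 3.99 (1.15 to 15.5) from 8 near and 5 far UMIs. ADGRL2 went the other way, at 0.208 (0.0238 to 0.837) from 2 and 24 UMIs. The single genes did not move together, since over all cells of the band that were not L5PT RPRM had a ratio of 1.92 (1.48 to 2.48) and CDH13 one of 0.599 (0.440 to 0.802). The part of position within the band in these ratios was not tested.

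In cells without the label, 5 of the 12 genes highest over IT_C (INPP1, KLHL32, NTNG1, RPRM and SORCS1) had their highest level between 500 and 700 µm, where most L5PT cells lay. The highest level was between 700 and 800 µm, where no L5PT cell lay, for 5 others (ADGRL2, ARHGAP22, BCL11B, CDH13 and GRIK2) and between 400 and 500 µm for ATP8A2 and KIF26B. RPRM was at 0.628 UMIs per 10000 between 400 and 500 µm, 1.37 (1.13 to 1.64) between 500 and 600 µm, 1.07 between 600 and 700 µm and 0.291 (0.183 to 0.441) between 700 and 800 µm. POU3F1, which was not among the 12 genes, was at 0.265, 0.883 (0.692 to 1.11), 0.351 and 0.132 in the same bins, and SORCS1 at 0.209, 0.484, 0.568 (0.428 to 0.739) and 0.172. FEZF2 was at 0.342, 0.810, 1.42 and 1.51 and BCL11B at 0.739, 0.786, 1.33 and 1.83, and both were highest in the deepest bin.

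**Figure D3:**
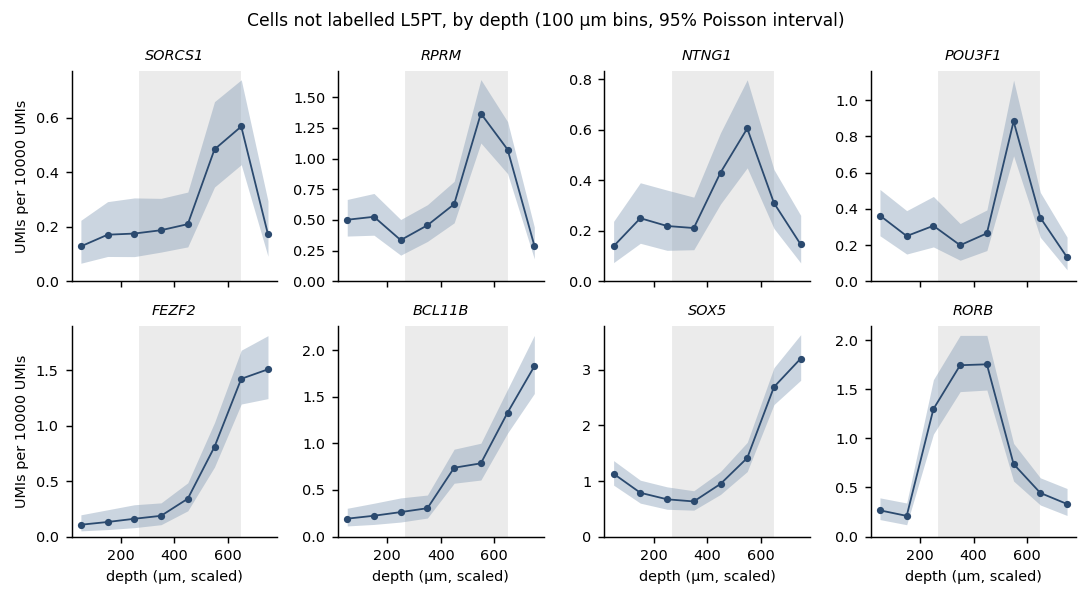
Level of 8 genes (UMIs per 10000 UMIs, axis from 0) against depth (µm, scaled, 100 µm bins) in V1 cells not labelled L5PT, with 95% exact Poisson intervals shaded and the band shared with IT_C in grey. SORCS1, RPRM, NTNG1 and POU3F1 have their maximum between 500 and 700 µm and are low below it, whereas FEZF2, BCL11B and SOX5 are highest at the bottom and RORB between 300 and 500 µm.

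The L5PT cells varied among themselves. The 12 genes highest over IT_C summed to 66.6 UMIs per 10000 (61.3 to 72.2) in the 29 cells of round 1, 43.9 (40.1 to 48.0) in the 62 cells of round 2 and 18.3 (14.2 to 23.1) in the 24 cells of round 3. Rounds were set by how many single-nucleus neighbors in expression space agreed on the label, so this order restates the labelling and is no result. Median UMIs per cell were 3042, 1749.5 and 1329.5 in the 3 rounds. The sums were 53.9, 44.9 and 38.7 in the 3 regions and 22.2 (13.6 to 34.3) in the 7 cells above 300 µm. In the other labels they were 8.74 (7.77 to 9.79) for IT_C of the band, 13.6 for L5NP, 15.2 for L6CT, 10.7 for IT_B and 7.83 for IT_A. These genes were chosen for their ratio to IT_C, so the distance from IT_C is no result. The choice also favored genes high in these same L5PT cells, so the distances from the other labels are no independent result.

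**Figure D4:**
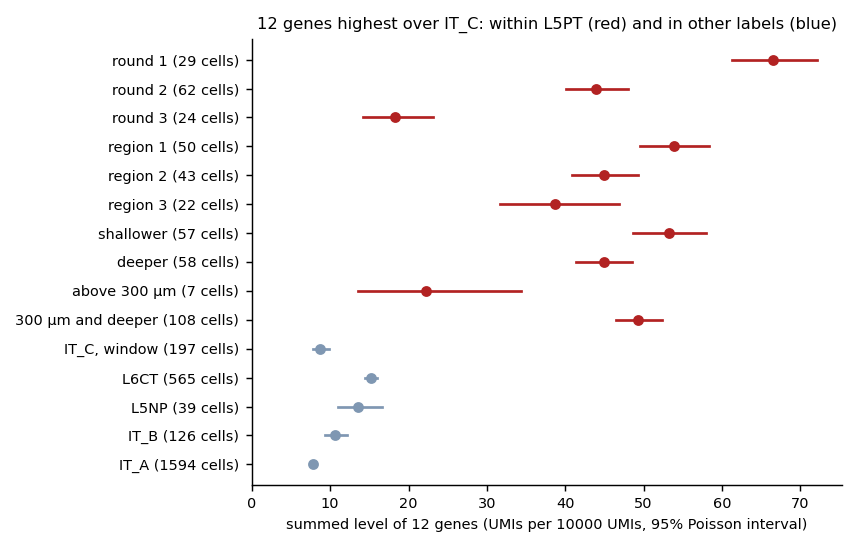
Summed level of the 12 genes with the highest ratio to IT_C (UMIs per 10000 UMIs, axis from 0, 95% exact Poisson intervals) within L5PT cells split by round, region and depth (red; 57 shallower and 58 deeper cells) and in other labels (blue). Round 1 stands at 66.6 and round 3 at 18.3, whose interval (14.2 to 23.1) includes L6CT at 15.2.

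Single genes reached only part of the L5PT cells. GRIK2 gave 308 UMIs in 54 of 115 cells, with 30 in 1 cell, and CDH13 was found in 38 cells with up to 14 UMIs in 1 of them. SORCS1 was found in 32.2% of L5PT cells, 3.82% of IT_C cells and 2.17% of oligodendrocytes. At least 2 of the 12 genes were found in 71.3% of L5PT cells, 51.3% of L5NP cells and 41.1% of L6CT cells, and in 23.9% of the IT_C cells of the band, against which the genes had been chosen. Since the choice favored genes high in these same L5PT cells, none of these gaps is an independent result. None of them was found in 3.48% of L5PT cells. Most L5PT cells, 89 of 115, shared 1 transferred cluster label, number 6, and their 12-gene sum was 53.1.

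Some genes differed with depth within the group. The 58 deeper L5PT cells (median 607.7 µm) and the 57 shallower ones (492.7 µm) had sums of the 12 genes of 44.9 and 53.2. LDB2 was at 7.25 UMIs per 10000 in the deeper and 1.55 in the shallower cells, a ratio of 4.67 (2.70 to 8.65), and ZFPM2, a cofactor of GATA factors, at 4.74 and 0.725, a ratio of 6.54 (3.00 to 16.9). SOX5 (2.52, 1.56 to 4.25) and the AMPA receptor subunit GRIA3 (3.25, 1.88 to 5.98) were also higher in the deeper cells. KIF26B went the other way, at 1.22 against 5.07 and a ratio of 0.241 (0.130 to 0.425), while the ratios of BCL11B (0.932, 0.576 to 1.52) and SORCS1 (0.931, 0.600 to 1.46) were near 1. The deeper cells had a median of 2349 UMIs and the shallower ones 1484, 20 of the deeper and 9 of the shallower cells were labelled in round 1, and 57 of the 73 ZFPM2 UMIs came from region 1. LDB2 was at 8.93 in round 1 and 2.10 in round 2, and the part of the round in these differences was not tested. V1 cells without the label also differed with depth. From 400 to 700 µm, in 100 µm bins, SOX5 was there at 0.948, 1.41 and 2.69 and LDB2 at 0.871, 1.26 and 1.599. KIF26B fell there, at 0.496, 0.375 and 0.3096. BCL11B (0.739, 0.786 and 1.33) and SORCS1 (0.209, 0.484 and 0.568) rose there, unlike within L5PT. The part of such a shared change with depth in the L5PT differences was not tested.

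The mouse section gave the same label to 256 cells, 4.10% (3.62 to 4.62%) of its glutamatergic cells, at a median depth of 422.8 µm and 1916 UMIs per cell. The paper did not quantify cell densities from Stereo-seq, because transcripts may drop out, perhaps more so in opossums. RNA integrity was 7.1 for the opossum tissue and higher for the mouse tissue. The opossum class also held 1041 cells with a label of another class or none, which were not counted for the mouse. The shares of the species were therefore not compared. Against L5IT, the deep IT group of the mouse, 230 L5PT and 83 L5IT cells between 320.5 and 507.1 µm were compared by the same rule over 4 regions, and of 2864 features 193 (6.74%) were higher and 103 (3.6%) lower. Of the named opossum genes called higher, 88 were tested in the mouse, where 9 (10.2%) were higher and 5 lower. Of those called lower, 102 were tested in the mouse, where 1 was higher and 11 (10.8%) lower. These shares stand beside 6.74% and 3.6% for all mouse features, and the share called higher was near that background.

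SORCS1 was higher in L5PT of both species, with an opossum ratio of 10.9 and a mouse ratio of 2.72. So were UNC5C, at 2.64 and 2.36, and KCNAB1, at 1.70 and 2.21, and KCNQ3 was lower in both, at 0.595 and 0.514. SOX5 had a ratio of 3.24 in the opossum, and Sox5 in the mouse one of 9.32 (3.09 to 46.1), where L5IT had only 3 UMIs. Fezf2 was not called in the mouse either, at 1.66 (0.886 to 3.37), nor was Bcl11b at 1.05 (0.591 to 1.96), against 0.600 and 8.69 in the opossum. Crym was higher in mouse L5PT at 3.34 (1.62 to 7.98), whereas CRYM in the opossum was at 0.638 (0.307 to 1.25). No difference between the species was tested, since each is 1 animal.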

How the data were processed

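Single Stereo-seq sections of 1 opossum and 1 mouse were used. The authors processed reads in the SAW pipeline after aligning images by hand, used a custom opossum genome in which gene 3′ ends were lengthened and GRCm39 for the mouse, and deposited UMI counts per gene and segmented cell, without normalization, with positions, V1 regions and transferred labels. L5PT cells were taken by those labels. Depth was measured along the smallest rectangle enclosing each region and scaled to the tallest region. Levels are UMIs per 10000 UMIs of summed counts with 95% exact Poisson intervals, ratios have exact conditional binomial intervals, and shares have Clopper-Pearson intervals. No interval covers more than counting error. A gene needed 50 UMIs over the groups compared, and a call needed a 1.5-fold difference with 1 direction in every region. No doublet caller was run, because cells were segmented on an image and not captured in droplets. Thinned values used 300 UMIs per cell.

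Of 30613 opossum features, 11598 carry a symbol, and the rest are counted but not named. Mouse features were named by identifier through the GENCODE annotation, which lists 61249 of 61317. For 21792 of them this name differed from the deposited symbol, and the name by identifier was used. The mouse genes named here rest on that choice. Genes were named from 16 lists (260 genes, some in 2 lists), from the 12 highest and 12 lowest ratios to IT_C, and from the 12 highest ratios to any other glutamatergic group. The members and the lists were chosen with earlier results of these data known. Alternatives were other minimums, folds, depth bands, radii, rounds and cell filters, thinning, means over cells, pooled comparison cells, and each region left out in turn. The computation was tested on simulated data. Computation used pandas 2.3.3 and scipy 1.17.1 under Python 3.11.15, with numpy 2.4.6, and plots used matplotlib 3.10.9. Some genes that these rules name are not reported here. No sequences are shown, and the single-nucleus data were not analysed here.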

Additional observations from a re-analysis of the deposited data

Results flagged for a closer look

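GRIA4, an AMPA receptor subunit, had opposite directions in the species. In the opossum its ratio of L5PT to IT_C was 2.34 (1.63 to 3.38), higher in each of 3 regions, and in the mouse its ratio of L5PT to L5IT was 0.509 (0.331 to 0.794), lower in each of 4 regions, from 59 and 36 UMIs. Each species is 1 animal and the comparison groups have different labels, and the difference was not tested.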

How the results depend on the processing

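No paired analysis was possible because each species is 1 animal and the labels number no replicates, although L5PT and IT_C were set against each other within each region. With minimums of 20, 100 and 1 UMIs, 465, 68 and 753 genes were higher and 589, 79 and 1133 lower, against 201 and 232. A 2-fold limit gave 79 and 84, thinning to 300 UMIs 12 and 13, and the central band (25th to 75th percentile of depth) 111 higher. First-round labels gave 42 and 72 (29 against 39 cells), of which 21 and 26 were among the calls above. Without cells that hold UMIs of myelin genes, 5 L5PT and 20 IT_C cells remained, with 2 and 4 calls. Those few cells also gave other directions, on 1 to 17 UMIs over both groups, for ARHGAP22, NTNG1, SOX5 and UNC5C (0), CACNA1A (1.18), EPHA7 (0.812), GRIA4 (0.710), GRM7 (3.55), NEFL (0.189), RASA3 (4.26), STMN3 (0.947) and SYN2 (2.84). Leaving out each region gave 131 (without region 2) to 238 higher and 191 to 265 lower genes, of 1472 to 2283 tested. It kept 10 to 18 of 23 higher and 14 to 20 of 23 lower calls of named genes. An alternative chosen after seeing the data, leaving out for each gene the cell with most UMIs in each group, kept 18 and 20 of them.

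Genes above every other group numbered 105 at 100 UMIs and 218 to 247 with a region left out. Against all other glutamatergic cells pooled, list medians were -0.28 for ion channels, 0.21 for oxidative phosphorylation, -0.017 for release genes and -0.99 for IT genes. First-round labels put the L5PT median at 596.4 µm, with 42.6% of pairs deeper than IT_C, 3042 UMIs and 1546 genes per cell. With a region left out, the median depth was 536.3 to 566.8 µm, the offset from IT_C 40.8 to 54.8 µm and the share of pairs 60.7 to 62.6%. At radii of 30 and 100 µm the L5PT share around L5PT was 15.1% and 7.27%, or 10.2 and 2.15 percentage points above that around IT_C, and with a region left out it was 9.89 to 11.3% around L5PT, 4.77 to 5.48% around IT_C and 5.07 to 5.84 points apart. The UMI ratio to IT_C, 1.30, was 1.15 in the shared band and 1.22 to 1.32 with a region left out, when medians were 1701.5 to 2066 UMIs, 999 to 1187 genes and 258 to 260 thinned genes. Mouse counts were 167 to 211 higher and 106 to 148 lower. Several of these settings leave fewer cells and UMIs, and the causes of the changes were not tested.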
